A study of Mus musculus with 550 samples.

Results

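The brains of mice given salts of monoethyl fumarate (MEF) were compared with the brains of mice given vehicle alone, 12 h after a single dose. MEF is the monoester of fumaric acid with ethanol, and the dose of 79.2 mg/kg was a mixture of its salts with calcium, magnesium and zinc. The vehicle was 0.8% hydroxypropyl methylcellulose. The comparison used 8 MEF and 8 vehicle arrays, 16 of the 550 arrays of the study, chosen by their titles as brain samples of these groups and this time. Gene expression in brain was also measured at 12 h in mice labelled naive (n = 8), in mice given dimethyl fumarate (DMF) at 100 mg/kg (n = 7) or 179.2 mg/kg (n = 8), and in mice given DMF at 100 mg/kg together with the MEF salts at 79.2 mg/kg (n = 7). At 6 h the same 5 dosed groups had 8 arrays each, and no naive brain of that time was analysed here. All mice were C57BL/6 animals; their age and sex are not given in the sources used here. Each array was taken as 1 animal, from the animal number in its title. The p-values rest on 1 spread per gene between animals within groups, pooled over all 86 brain arrays of both times. They do not measure the spread of the 16 compared animals alone. The part of the brain that was taken is not given in the sources used here.

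Fumaric acid esters react with cysteine residues, and the best known consequence is release of the transcription factor NRF2 from its inhibitor KEAP1, which raises genes of glutathione synthesis and quinone reduction. Immediate early genes, in contrast, are switched on within minutes of neuronal firing or growth factor signals without new protein synthesis. Many of them encode transcription factors (Fos, Egr2, Nr4a1) or signal terminators (Dusp1), and in brain they serve as markers of recent activity. Zinc salts bear on metallothionein and zinc exporter genes, which the metal sensor MTF1 raises when free zinc rises.

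All values below are log2 levels, so a difference of 1 is a doubling. A gene is called changed when limma's moderated test gave a Benjamini-Hochberg adjusted p below 0.05 over the 17097 genes tested, each by 1 probe set. The floor, the lowest value any gene takes at 12 h, was 2.18. The labelled tissue was borne out by its markers: Snap25, a protein of synaptic vesicle fusion, lay between 12.79 and 13.04 on the 16 arrays, the glutamate transporter gene Slc17a7 between 10.47 and 10.94, the myelin gene Mbp between 11.07 and 11.75 and the astrocyte gap junction gene Gja1 between 11.92 and 12.48.

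Single arrays stood apart in genes of particular brain regions, which bears on several results. Slc6a5, the glycine transporter of hindbrain and spinal cord neurons, exceeded 6 in vehicle animals 1 (6.10), 3 (6.87) and 8 (6.82), against 3.42 to 4.54 in the 8 MEF animals. The cerebellar granule cell gene Cbln3 reached 10.59 in vehicle animal 1 and 6.59 in vehicle animal 2, and lay between 2.67 and 3.23 in the MEF group. Genes of the olfactory bulb marked other arrays: S100a5 was at 7.23 and 6.98 in vehicle animals 5 and 6 and at 5.96 in MEF animal 29, and at the floor on the other 13 arrays. The growth hormone gene Gh, a pituitary product, was at 12.43 and 7.21 in MEF animals 30 and 31 and at most 3.93 on the other 14 arrays. Ttr, the main choroid plexus transcript, ranged from 10.69 to 13.32 in the vehicle group and from 11.53 to 13.51 in the MEF group. Where a called gene lost its call without 1 of these sets of arrays (pituitary, hindbrain or olfactory bulb), the values stand beside it.

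**Figure D1:**
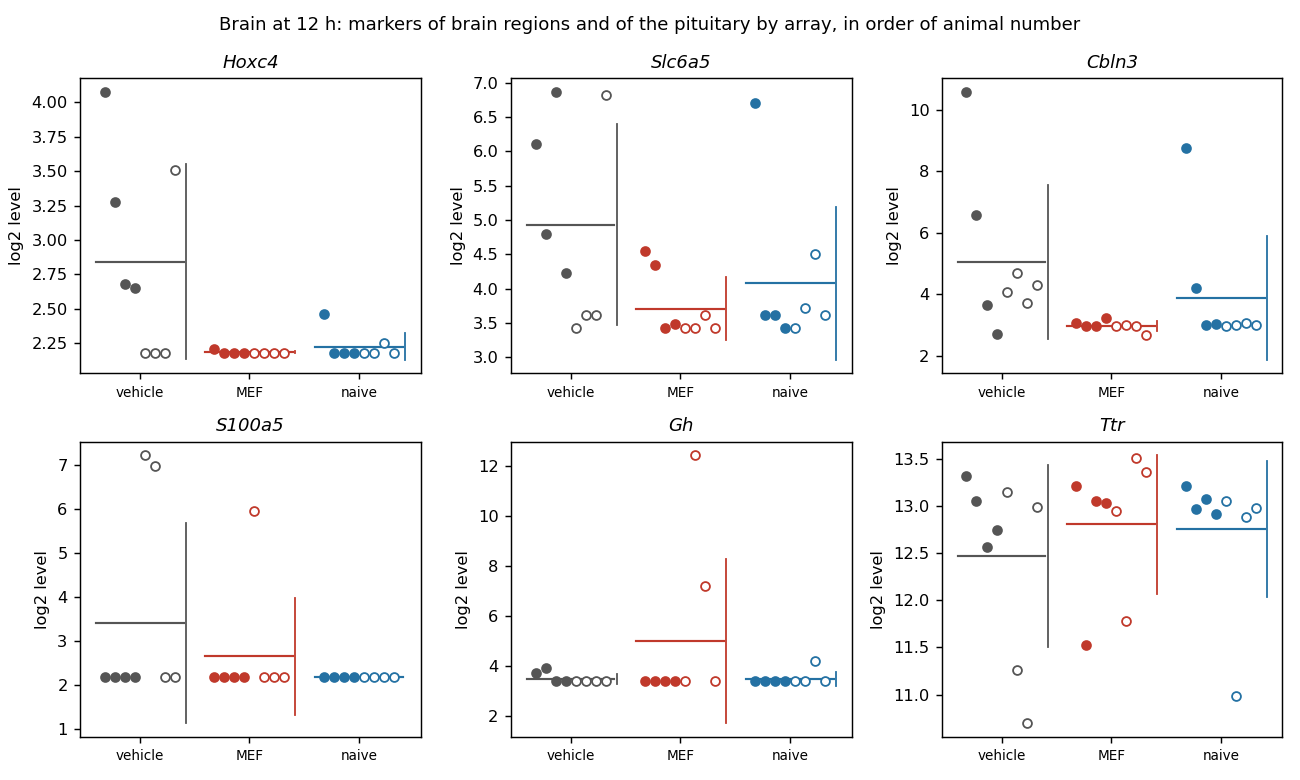
Log2 levels (y axis) of 6 region markers on each brain array at 12 h, by group (x axis); filled and open points are the first and the second 4 animal numbers of a group, horizontal bars are means and vertical lines SD. Hoxc4 is above the floor in 5 of 8 vehicle animals and at 2.21 in 1 MEF animal, S100a5 is high in 2 vehicle animals and 1 MEF animal, and Gh in 2 MEF animals.

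Few brain genes differed between the MEF and the vehicle group at 12 h. Whether the MEF or the vehicle animals account for a difference was not tested. Of 17097 genes 15 were called (0.0877%), 4 higher (0.0234%) and 11 lower (0.0643%) than with vehicle, and 1765 (10.3%) had an unadjusted p below 0.05, 724 of them higher (4.23%) and 1041 lower (6.09%). The called genes with lower levels were Ccn1, Nr4a1, Dusp1, Hoxc4, Hoxb3, Armh4, Tax1bp1, Msantd4, Tpbpb, Haglr and Hint1, and those with higher levels Schip1, Gm10419, D530017H19Rik and Nmnat2. The middle gene did not shift (median difference 0), and the absolute difference was 0.04 for the median gene and 0.33 for the gene at the 99th percentile. Only 8 genes differed by more than 1, among them Cbln3 (-2.07), Prl (2.05) and Gh (1.498), which followed the arrays named above and were not called.

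**Figure D2:**
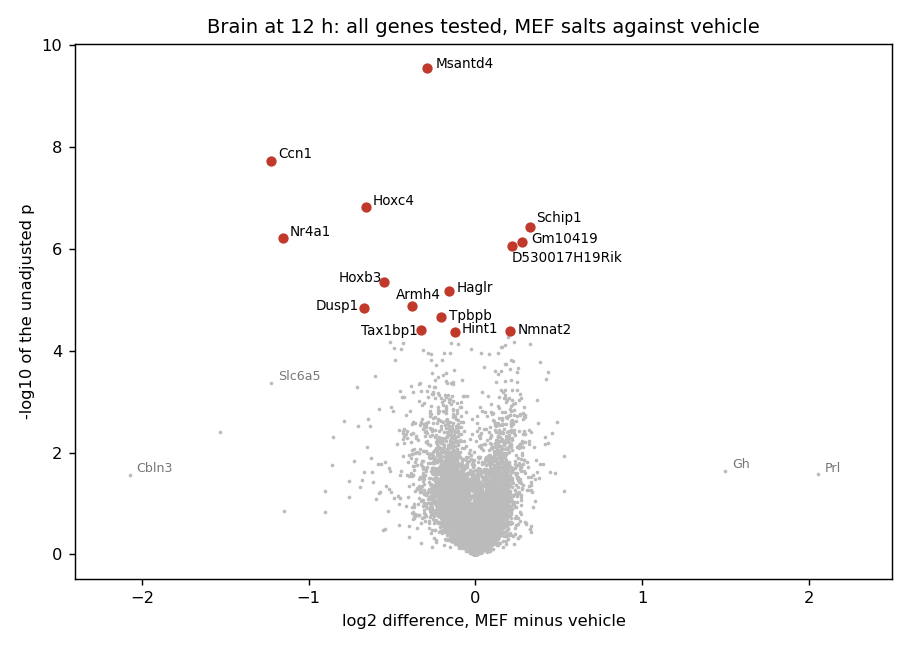
Log2 difference between MEF and vehicle means (x axis) against -log10 of the unadjusted p (y axis) for 17097 brain genes at 12 h; red points are the 15 called genes. Of the called genes only Ccn1 (-1.22) and Nr4a1 (-1.15) differ by more than 1, while the uncalled Cbln3 (-2.07), Prl (2.05) and Gh (1.498) lie farther from 0.

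The count of calls moved with the fit. It was 3 when only these 16 arrays were fitted, and 2 of these were among the 15, Msantd4 (adjusted p = 0.0013) and Dusp1 (0.0166). In that fit Nr4a1 had an adjusted p of 0.075, Ccn1 0.0943, Schip1 0.114, Hoxb3 0.385 and Hoxc4 0.41. The remaining called genes lost the call there as well. With the 12 h arrays alone the count was 6, and the 4 among the 15 were Msantd4, Ccn1, Nr4a1 and Schip1. Animal numbers run on from group to group, and 4642 genes (27.2%) had a slope on the place of the animal in runs of 12 numbers at 12 h. Both groups hold places 1 to 8, so adding the place as a covariate leaves every difference as it is. This covariate gave 40 calls (0.234%), 11 higher (0.0643%) and 29 lower (0.17%), all 15 among them. With place as a block of 8 levels over the 16 arrays alone 2 genes were called, none of them among the 15, for which Msantd4 then had an adjusted p of 0.0889, Nr4a1 0.0958 and Ccn1 0.146. A further quantile normalization gave 48 calls with a different split, 27 higher and 21 lower. Leaving out 1 animal moved the count most for MEF animals 26 (75), 32 (34) and 28 (9) and for vehicle animals 2 (39) and 6 (27). Without MEF animals 30 and 31, which carried pituitary genes, it was 7. Without the 8 arrays with Gh or Slc6a5 above 6 or an olfactory bulb marker mean above 5.5 it was 31. Of these 31, 3 (Msantd4, Ccn1 and Hoxc4) were among the 15. That fit kept only animals 2, 4 and 7 of the vehicle group. Animal 2 still carried Cbln3 and Hoxc4 above the floor, since arrays were not left out by cerebellar or Hox genes.

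The called genes with lower levels included 2 members of the immediate early gene list, Nr4a1, an orphan nuclear receptor, and Dusp1, a phosphatase that shuts off MAP kinases. Ccn1, which encodes a secreted matrix protein and is known to be induced rapidly by growth factors, is not on that list and was set beside them after its values were seen. The promoters of these 3 genes are shown because transcription of each is known to follow signals rapidly; CREB, a factor activated by calcium and cAMP in neurons, binds the cAMP response element (CRE, TGACGTCA) and its core motif TGACG. The 250 bases before each start are printed 5′ to 3′ on the strand of the gene, from RefSeq on GRCm38.p6, at chr3:145649986-145650235 (minus strand) for Ccn1, chr15:101266596-101266845 (plus strand) for Nr4a1 and chr17:26508473-26508722 (minus strand) for Dusp1. Capitals mark the core motif on either strand and the full element, which contains a core motif on each strand.
Ccn1: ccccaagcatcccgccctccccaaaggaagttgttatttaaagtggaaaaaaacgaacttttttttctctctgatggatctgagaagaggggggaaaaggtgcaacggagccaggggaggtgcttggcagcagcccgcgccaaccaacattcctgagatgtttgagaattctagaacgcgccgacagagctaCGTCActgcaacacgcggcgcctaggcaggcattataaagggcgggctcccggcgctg
Nr4a1: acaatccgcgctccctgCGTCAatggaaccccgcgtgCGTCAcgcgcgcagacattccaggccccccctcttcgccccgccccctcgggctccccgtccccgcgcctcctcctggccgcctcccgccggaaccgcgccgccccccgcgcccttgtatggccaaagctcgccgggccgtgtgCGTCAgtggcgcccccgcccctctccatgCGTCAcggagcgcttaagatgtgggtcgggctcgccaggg
Dusp1: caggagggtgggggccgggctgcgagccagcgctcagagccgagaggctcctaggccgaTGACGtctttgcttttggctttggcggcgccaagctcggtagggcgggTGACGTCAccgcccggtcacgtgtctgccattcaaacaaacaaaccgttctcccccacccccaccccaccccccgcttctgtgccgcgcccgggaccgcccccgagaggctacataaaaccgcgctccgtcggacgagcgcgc
The window of Ccn1 holds 1 core motif, that of Nr4a1 holds 4, and that of Dusp1 holds 3, of which 2 overlap in its full CRE. Of 32536 windows of this length in the table, 17.9% hold a core motif on either strand and 1.56% the full element. The CArG box, the site of the serum response factor, was searched on both strands, has no exact match in these 3 windows and occurs in 1.48% of all windows. These matches describe letters and were not tested as binding sites.

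Ccn1 ranged from 6.24 to 7.99 in the vehicle group (median 7.28) and from 5.57 to 6.26 in the MEF group (median 5.88). The groups met at 1 point, the highest MEF animal (32) lying just above the lowest vehicle animal (5). Its mean was 7.09 ± 0.63 (SD, n = 8) with vehicle and 5.87 ± 0.21 (n = 8) with MEF, a difference of -1.22 ± 0.19 (SE; 95% interval -1.61 to -0.84, 2.34-fold lower, limma adjusted p = 0.000161). Ccn1 was chosen after its values were seen, since its mean level over the brain arrays (6.35) lay just under the median gene (6.36) and so outside the rule for named genes. A second probe set of Ccn1, near the floor, had a difference of -0.25.

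Nr4a1 ranged from 6.98 to 7.64 with vehicle (median 7.42) and from 5.35 to 6.98 with MEF (median 6.24). Only MEF animal 32 lay level with the lowest vehicle animal. The difference was -1.15 ± 0.21 (interval -1.57 to -0.73, 2.22-fold lower, adjusted p = 0.00209). Dusp1 ranged from 10.998 to 11.49 with vehicle (median 11.39) and from 10.48 to 10.92 with MEF (median 10.59), so that its groups did not overlap. It differed by -0.67 ± 0.14 (1.59-fold lower, adjusted p = 0.0223). Across all genes the ranges were apart for 16 (0.0936%), with MEF above for 9 (0.0526%) and below for 7 (0.0409%), of which Dusp1, Armh4 and Msantd4 were called.

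In the vehicle group Ccn1 and Dusp1 fell into runs of 4 consecutive animal numbers, and Nr4a1 did not. Vehicle animals 1 to 4 had Ccn1 between 7.41 and 7.99 and animals 5 to 8 between 6.24 and 7.14, and Dusp1 between 11.42 and 11.49 and between 10.998 and 11.35. Nr4a1 lay between 6.98 and 7.52 in animals 1 to 4 and between 7.04 and 7.64 in animals 5 to 8. The difference between MEF and vehicle for Ccn1 was -1.84 in places 1 to 4 (adjusted p = 3.76e-06) and -0.60 in places 5 to 8 (adjusted p = 0.441), 4 arrays against 4 in each. For Nr4a1 it was -1.35 (adjusted p = 0.0286) and -0.95 (0.209), and for Dusp1 -0.93 (0.0286) and -0.41 (0.614). With runs of 4 as a random block, which was added once the values were known, 5 genes were called (0.0292%): Msantd4, Ccn1, Nr4a1, Hoxc4 and Schip1, while Dusp1 had an adjusted p of 0.13. Without the 8 arrays left out for Gh, Slc6a5 or olfactory bulb genes, only animals 2, 4 and 7 of the vehicle group were left. Ccn1 was then at -1.42 (0.0124), Nr4a1 at -1.13 (0.185) and Dusp1 at -0.69 (0.439). Dusp1 also lost the call without the 3 vehicle arrays with Slc6a5 above 6 (-0.58, adjusted p = 0.206), without the 2 MEF arrays with Gh above 6 (0.0609), without MEF animal 28 (0.0714) or without vehicle animal 8 (0.0522). What a run of numbers stands for is not given in the labels, and its part in these results was not tested beyond this block.

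**Figure D3:**
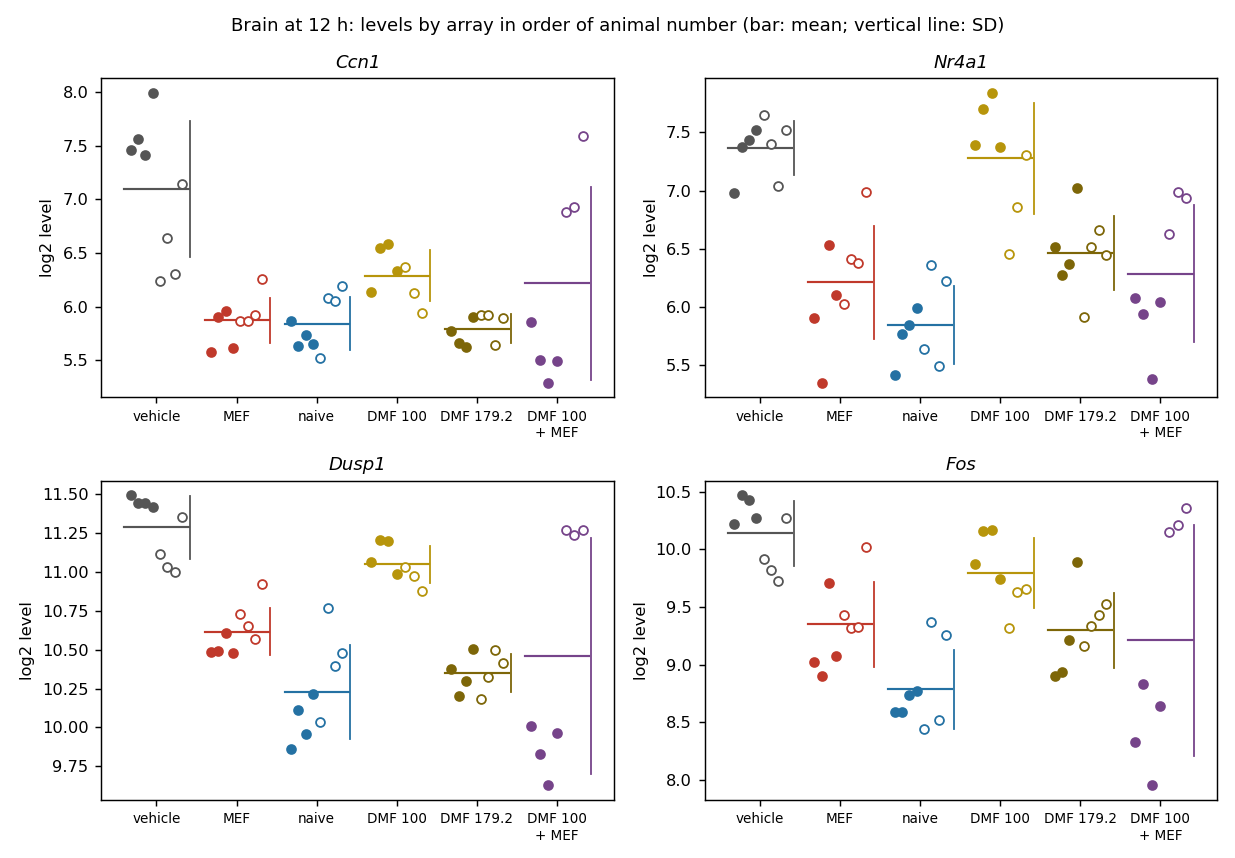
Log2 levels (y axis) of Ccn1, Nr4a1, Dusp1 and Fos on each brain array at 12 h, by group (x axis, DMF doses in mg/kg) and in order of animal number; filled and open points are the first and the second 4 animal numbers of a group, bars are means and vertical lines SD. The MEF mean lies below the vehicle mean in all 4 panels, and the ranges of these groups are apart for Dusp1 only. The DMF + MEF group splits into 4 low and 3 high animals, with Dusp1 between 9.63 and 10.01 and between 11.24 and 11.27.

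Of 24 measured immediate early genes 2 were called lower (Nr4a1 and Dusp1) and none higher, and 8 had an unadjusted p below 0.05, all lower. Over all genes 0.0643% were called lower and 6.09% were lower with an unadjusted p below 0.05. The list's median difference was -0.10, against 0 over all genes. Ccn1 was not on this list. Fos, the AP-1 subunit most used as an activity marker, ranged from 9.72 to 10.47 with vehicle (median 10.24) and from 8.90 to 10.02 with MEF (median 9.32). MEF animal 32 lay within the vehicle range and animal 27 just below it, and the difference of -0.79 ± 0.25 was not called (adjusted p = 0.188). Arc, which acts at synapses, differed by -0.85 ± 0.29 (adjusted p = 0.23), the antiproliferative gene Btg2 by -0.70 ± 0.23 (0.197), Egr2 by -0.58 ± 0.24 (0.359) and Ier2 by -0.34 ± 0.09 (0.105). Other members lay closer to 0: Nr4a3 (0.02), Homer1 (0.03), Fosb (0.04), Jun (-0.08) and Egr1 (-0.08), and Bdnf, a neurotrophin gene, was at 0.15 ± 0.10.

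The smallest p belonged to Msantd4, whose protein carries a Myb/SANT-like DNA binding domain. It was between 8.98 and 9.10 in the 8 vehicle animals (median 9.03) and between 8.62 and 8.82 in the 8 MEF animals (median 8.76). Every MEF animal lay below every vehicle animal. The difference of -0.29 ± 0.04 (interval -0.37 to -0.21) is a 1.22-fold lower level (adjusted p = 4.96e-06). It was -0.24 in places 1 to 4 (adjusted p = 0.0456) and -0.34 in places 5 to 8 (0.00143). Without the 8 arrays left out for Gh, Slc6a5 or olfactory bulb genes it was -0.24 (0.0486).

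Armh4, named for an armadillo-like helical domain, was between 7.74 and 8.19 with vehicle and between 7.38 and 7.71 with MEF, again without overlap. It differed by -0.38 ± 0.08 (adjusted p = 0.0223); the call was lost without MEF animal 29 (adjusted p = 0.0672) or 31 (0.0543) or vehicle animal 1 (0.0619) or 8 (0.0572). It was also lost without the arrays with pituitary (0.0609), hindbrain (0.152) or olfactory bulb genes (0.129). Tax1bp1, an autophagy receptor that also restrains NF-kB signalling, fell by 0.33 ± 0.07 (adjusted p = 0.0484). Its 2 other probe sets differed by -0.32 and -0.15. Hint1, a histidine triad nucleotide hydrolase, differed by -0.12 ± 0.03 (adjusted p = 0.0484), and its other probe set by -0.04. Tax1bp1 and Hint1 were close to the threshold and lost the call in 9 and 10 of the 16 fits that left out 1 animal. Without the pituitary, hindbrain or olfactory bulb arrays neither was called, with adjusted p of 0.0722, 0.206 and 0.211 for Tax1bp1 and 0.0867, 0.217 and 0.205 for Hint1.

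Schip1, which encodes a merlin-interacting protein of axon initial segments and nodes, showed the largest of the 4 called rises. It ranged from 9.45 to 9.86 with vehicle (median 9.60) and from 9.81 to 10.18 with MEF (median 9.96). MEF animals 30 and 32 lay within the vehicle range. The difference was 0.33 ± 0.06 (interval 0.21 to 0.44, 1.254-fold, adjusted p = 0.0016), at 0.26 in places 1 to 4 (adjusted p = 0.264) and 0.39 in places 5 to 8 (0.0075). Without the 3 arrays with olfactory bulb genes it was 0.27 (adjusted p = 0.0578). Nmnat2, an enzyme of NAD synthesis that axons need to survive, rose by 0.20 ± 0.05 (adjusted p = 0.0484), from 10.54 ± 0.14 to 10.75 ± 0.08 (SD, n = 8 each), and lost the call in 10 of the 16 fits without 1 animal and without the pituitary (0.0609), hindbrain (0.125) or olfactory bulb arrays (0.265). The predicted transcripts Gm10419 (0.28 ± 0.05, adjusted p = 0.00209) and D530017H19Rik (0.22 ± 0.04, adjusted p = 0.00221) were also higher, the latter at levels of 3.49 to 4.09. Both were chosen after their values were seen, as were Haglr, a noncoding transcript of the Hoxd locus (-0.16 ± 0.03, adjusted p = 0.0128), and the trophoblast gene Tpbpb (-0.21 ± 0.05, adjusted p = 0.0313), which lay at or below 2.98 and 3.74. Haglr was tied at 2.48 in every MEF animal but 28, and vehicle animals 4, 5, 6 and 7 also shared 1 value. Its difference is therefore one between tied arrays and a few vehicle arrays above them. The call was lost without vehicle animal 1 (0.0619) or 8 (0.0706), and with these groups alone (0.533). Without the hindbrain arrays Haglr differed by -0.04 (adjusted p = 0.414), Tpbpb by -0.17 (0.215) and Gm10419 by 0.22 (0.063). Without the pituitary arrays Haglr (0.0511), Tpbpb (0.105) and D530017H19Rik (0.0867) lost the call. The difference of D530017H19Rik was the same (0.225) whichever of vehicle animals 2, 3, 4, 5, 6 and 8 was left out. It was also the same (0.242) without MEF animal 25, 29 or 32. Much of its difference is therefore one between arrays at a tied value and MEF arrays above it. With these groups alone its adjusted p was 0.325.

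Hoxc4 and Hoxb3, homeobox genes that mark the hindbrain and spinal cord along the body axis, were called lower. Hoxc4 was at 4.08, 3.28, 2.68, 2.66 and 3.51 in vehicle animals 1, 2, 3, 4 and 8 and at the floor in the other 3, and 7 of 8 MEF animals lay at the floor with animal 25 at 2.21. The difference of -0.66 ± 0.11 (adjusted p = 0.00088) is therefore one between arrays at the floor and 5 vehicle arrays above it, and the level below the floor is not measured. Hoxb3 ranged from 2.45 to 3.76 with vehicle and from 2.44 to 2.93 with MEF and differed by -0.55 ± 0.11 (adjusted p = 0.00968). The Hoxb3 call was lost without vehicle animal 8 (adjusted p = 0.0622) or the pituitary arrays (0.0609). A second Hoxb3 probe set, at or near the floor in both groups, differed by 0.01. Slc6a5 (-1.22 ± 0.33, adjusted p = 0.105) and Hoxb5 (-0.60 ± 0.16, adjusted p = 0.0923) were not called; Hoxb5 was highest on vehicle animals 1, 2 and 8. Of 15 measured hindbrain and spinal cord markers 2 were called lower and 5 had an unadjusted p below 0.05, all lower (6.09% over all genes), with a median difference of -0.00. The mean level of the list ranged from 2.42 to 3.31 in the vehicle group and from 2.42 to 3.13 in the MEF group, and Hoxb2, Hoxd3, Hoxa2 and Hoxb6 had the floor as their mean in both groups. Without the 3 vehicle arrays with Slc6a5 above 6, Hoxc4 differed by -0.31 (adjusted p = 0.0732) and Hoxb3 by -0.30 (0.385), and Dusp1 and Haglr lost the call as given above; Ccn1 was at -1.08 (0.014) and Nr4a1 at -1.18 (0.014). In these bulk samples fewer cells of a type and less RNA per cell cannot be told apart.

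Below the threshold, 10 further genes with higher levels and 6 with lower levels are those of the smallest p among genes above the median level, none of them called. On the higher side were the cell cycle factor Tfdp1 (0.23 ± 0.05, adjusted p = 0.0557), Arhgap39 (0.18 ± 0.04) and Arhgef12 (0.16 ± 0.04), and the histone methyltransferase Kmt2d (0.14 ± 0.03). The chromatin reader Zmynd8 (0.22 ± 0.05, adjusted p = 0.0654), the phosphatase subunit Ankrd28 (0.22 ± 0.06), the cytochrome oxidase subunit Cox8a (0.18 ± 0.05), the exocytosis inhibitor Stxbp5 (0.18 ± 0.05), the mitochondrial translation factor Guf1 (0.25 ± 0.07) and Nav2 (0.15 ± 0.04) followed. On the lower side were the survival gene Mcl1 (-0.15 ± 0.04, adjusted p = 0.0557), the sphingosine phosphate phosphatase Sgpp2 (-0.43 ± 0.10), the glyoxalase Glo1 (-0.11 ± 0.03) and Ankrd29 (-0.32 ± 0.08). ATP citrate lyase (Acly, -0.15 ± 0.04) and the inhibitor of the mitochondrial ATP synthase (Atpif1, -0.19 ± 0.05) completed them. With the place covariate 29 genes were called lower, and Mcl1, Sgpp2, Glo1, Ankrd29, Acly and Atpif1 were among them with adjusted p from 0.0137 to 0.0396.

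Targets of NRF2 showed little difference in brain. Of 25 measured targets none was called, 3 had an unadjusted p below 0.05, all higher, and 15 of 25 lay below 0, with a median of -0.02. Over all genes 10.3% had such a p, 4.23% on the higher side. The 3 of 25 were thus near the share for both sides and above that for the higher side. The list as a set was not tested. Nqo1, a quinone reductase and the usual reporter of NRF2, ranged from 7.06 to 7.48 with vehicle (median 7.28) and from 7.26 to 7.88 with MEF (median 7.36). The ranges overlapped, with MEF animals 26, 29 and 31 above the vehicle range, and the difference was 0.19 ± 0.14 (interval -0.09 to 0.46, adjusted p = 0.742). Gclm and Gclc, the subunits of the enzyme that limits glutathione synthesis, differed by 0.22 ± 0.07 (interval 0.08 to 0.36, adjusted p = 0.186) and 0.13 ± 0.09 (interval -0.06 to 0.32). The carbonyl reductase gene Cbr3 was at 0.18 ± 0.10 (interval -0.01 to 0.38) and the heme oxygenase gene Hmox1 at 0.04 ± 0.12 (interval -0.20 to 0.28). Srxn1, a sulfiredoxin, differed by -0.03 ± 0.05, and Akr1b8 (-0.02) and Osgin1 (-0.05) lay near the floor in both groups. For Nqo1 and Hmox1 the upper bounds of these intervals are 1.38-fold and 1.21-fold.

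**Figure D4:**
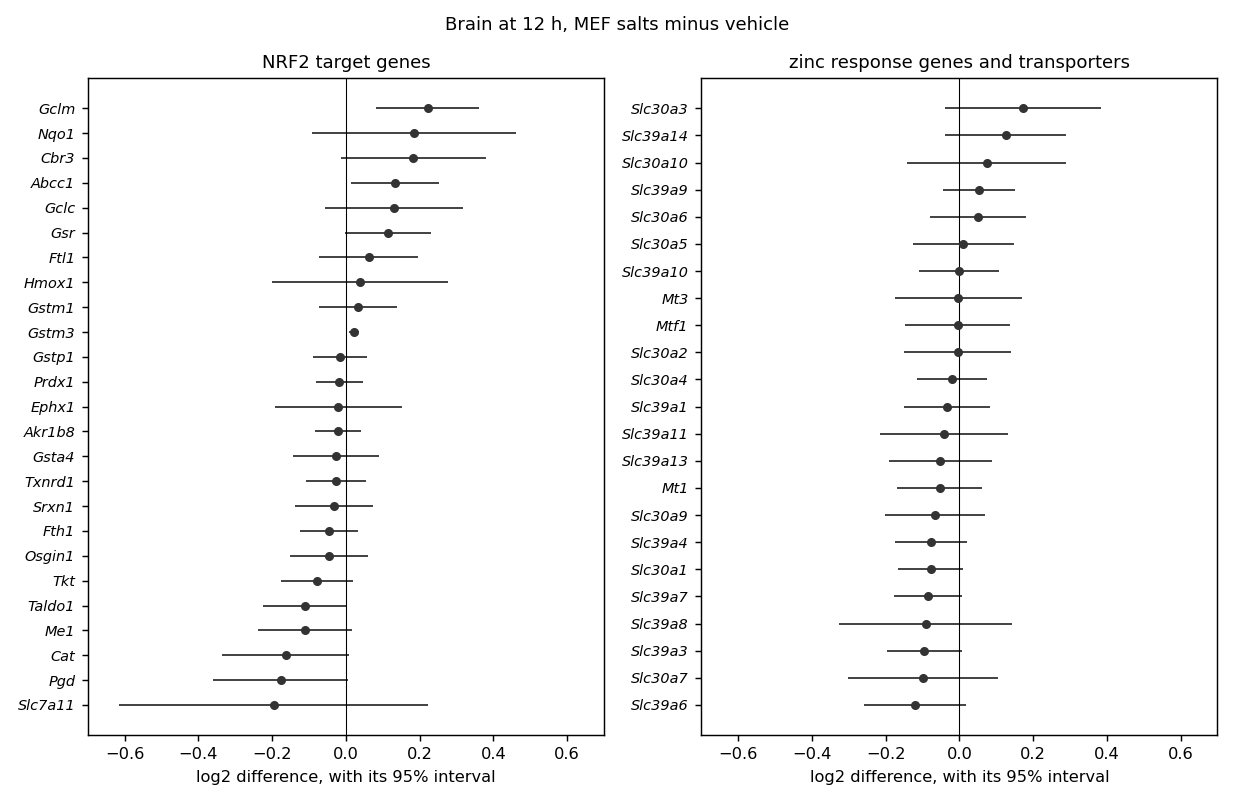
Log2 difference between MEF and vehicle means at 12 h (x axis, with 95% intervals as horizontal lines) for 25 NRF2 targets on the left and 23 zinc response and zinc transporter genes on the right (y axis, genes). No gene was called; Gclm at 0.22 is the highest NRF2 target and Slc30a3 at 0.17 the highest zinc gene.

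No metal gene passed the test. Of 6 measured zinc and metal response genes and 17 zinc transporters none was called and none had an unadjusted p below 0.05. The metallothionein gene Mt1, which buffers zinc, was between 11.64 and 11.94 with vehicle and between 11.62 and 11.87 with MEF (-0.05 ± 0.06, interval -0.17 to 0.06). The zinc exporter gene Slc30a1, a direct MTF1 target, was at -0.08 ± 0.04 (interval -0.17 to 0.01) and Mt3, the neuronal metallothionein, at -0.00. Mt2 was not among the genes tested. Of 20 measured calcium and magnesium transport genes none was called, 2 had an unadjusted p below 0.05 on the higher side and 1 on the lower side, against 10.3% of all genes. Hcar2, the receptor through which monomethyl fumarate acts on immune cells, lay near the floor (between 2.26 and 2.66 on the 16 arrays) with a difference of -0.07 ± 0.05.

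Heat shock genes and genes of energy metabolism lay mostly below 0 without any call. In the counts that follow, the share of all genes with an unadjusted p below 0.05 was 6.09% on the lower side and 10.3% in all. All 11 measured heat shock genes lay below 0, 4 with an unadjusted p below 0.05, among them Dnaja1 (-0.13 ± 0.04, adjusted p = 0.134) and Hspe1 (-0.12 ± 0.04, 0.198), with a median of -0.09. Endoplasmic reticulum chaperone genes, which also serve protein folding, lay on both sides: of 15 measured, 7 were above and 8 below 0, 1 had an unadjusted p below 0.05 on the higher and 4 on the lower side, and the median was -0.01. Of 19 respiratory chain genes 14 lay below 0 and 5 had an unadjusted p below 0.05, led by Ndufb5 (-0.14), Uqcrc2 (-0.13) and Ndufs1 (-0.11). Of 17 genes of the citric acid cycle, in which fumarate is an intermediate, 13 lay below 0 and 4 had an unadjusted p below 0.05, and fumarate hydratase (Fh1) was at -0.12 with an unadjusted p of 0.0908. Cox8a, outside these lists, lay above 0. In DMF+MEF against DMF at 12 h, 12 of the 19 respiratory chain and 9 of the 17 citric acid cycle genes lay above 0. For MEF at 6 h, 13 of each list lay above 0. Heat shock genes lay mostly below 0 in both (10 of 11 and 7 of 11). In all, 40 of 42 lists had no called member, and over all genes 8374 of 17097 lay below 0 and 7043 above.

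The measured oligodendrocyte and olfactory bulb markers lay below 0 without a call. Over all genes 6.09% were lower and 4.23% higher with an unadjusted p below 0.05. All 17 measured oligodendrocyte and myelin genes lay below 0 and 6 had an unadjusted p below 0.05, with a median of -0.20; none was called. Examples were Ugt8a (-0.38 ± 0.14), which makes the myelin lipid galactosylceramide, and Sox10 (-0.32 ± 0.13), the lineage's transcription factor. The mean level of the list ranged from 8.71 to 9.37 with vehicle and from 8.24 to 9.20 with MEF, and it was from 8.42 to 9.03 in naive mice, so that the groups overlapped. The 10 olfactory bulb markers all lay below 0 (median -0.41, 5 with an unadjusted p below 0.05), and their mean level ranged from 4.57 to 6.82 with vehicle and from 4.45 to 5.96 with MEF. Of 9 pituitary genes 3 had an unadjusted p below 0.05, all higher, and of 12 cerebellar genes 3, all lower, with the single arrays named above at the ends of their ranges. Of 13 measured microglia markers none was called and the median difference was 0.00. Interferon response genes (16 measured), inflammatory NF-kB genes (18) and ATF4 stress response genes (16) had no call either, with medians of 0.00, 0 and -0.00. The part of these cell types and regions in the called genes was not tested beyond leaving arrays out.

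Clock and glucocorticoid genes, which follow the hour of collection and handling, had no call. Of 17 clock genes 2 had an unadjusted p below 0.05 on the higher side (Per2 at 0.25 ± 0.13 and Bhlhe40) and 1 on the lower side (Nfil3 at -0.29 ± 0.08, adjusted p = 0.126), against 10.3% of all genes. Fkbp5, a glucocorticoid target, differed by 0.15 ± 0.13. Tra2b, a splicing regulator, ranged from 4.68 to 6.40 with vehicle and from 5.42 to 6.30 with MEF and differed by 0.26 ± 0.34.

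Levels in naive mice are given as a description, since the called genes were chosen for a difference from vehicle. The naive animals hold places 5 to 12, whereas MEF and vehicle hold places 1 to 8, and these values are not adjusted for place. Ccn1 ranged from 5.52 to 6.19 in naive mice, below all 8 vehicle animals, and Msantd4 from 8.63 to 8.83, also below all 8. Dusp1 was lower still in naive mice, from 9.86 to 10.77 (median 10.16). Armh4 ranged from 7.52 to 7.99 in naive mice and overlapped both the vehicle and the MEF range. Set against the naive mice, a comparison chosen after their levels had been seen and fitted without place, MEF had 1 call of 17097 (0.00585%), the clock gene Per1, at 0.62 above naive (limma adjusted p = 0.0053).

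The same salts were also given on top of DMF, in other animals, and DMF+MEF at 12 h was set against DMF at 100 mg/kg. Of 17097 genes 6 were called (0.0351%), 2 higher (0.0117%) and 4 lower (0.0234%), and 1394 (8.15%) had an unadjusted p below 0.05, 689 higher (4.03%) and 705 lower (4.12%). Tiparp, a poly(ADP-ribose) polymerase induced by the aryl hydrocarbon receptor, differed by -0.54 ± 0.10 (adjusted p = 0.00626), Mcl1 by -0.20 (0.00971) and Cttnbp2nl by -0.29 (0.0175). Guf1 (0.33, adjusted p = 0.036) and Frat1, an activator of Wnt signalling (0.27, 0.0431), were higher, and Pla2g2e, chosen after its values were seen, was at -0.07. None of these 6 was among the 15 genes called for MEF alone. Mcl1 and Guf1, at -0.15 and 0.25 there, had the same direction in both. The count was 24 with the place covariate (0.14%) and 0 in a fit of these groups alone, of the 12 h arrays alone, with the mean of all probe sets, with runs of 4 as a random block (639 genes with an unadjusted p below 0.05), or without DMF+MEF animal 35. Without DMF animals 9, 13, 14 or 15 it was 12, 15, 13 and 11, and without DMF+MEF animals 36, 37 or 38 it was 18, 20 and 24.

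Of the 15 genes called for MEF alone, 13 had the same direction on top of DMF and 9 of these an unadjusted p below 0.05, against 8.15% of all genes in either direction. None was called. Both comparisons use the same pooled spread per gene, so their p-values are not independent. The share of all genes with the same direction in both was not counted. Nr4a1 was at -0.99 ± 0.23 (adjusted p = 0.0596), Dusp1 at -0.59 ± 0.15 (0.118), Msantd4 at -0.17 ± 0.04 (0.0958), Armh4 at -0.26, Tax1bp1 at -0.25, Nmnat2 at 0.15 and Schip1 at 0.14. Ccn1 was at -0.07 ± 0.21, Hoxc4 at 0.03 and Hoxb3 at 0.04. The DMF+MEF group itself was split: Ccn1 lay between 5.29 and 5.85 in animals 33 to 36 and between 6.88 and 7.59 in animals 37, 38 and 40, and Fos between 7.95 and 8.83 and between 10.15 and 10.36. With DMF alone Ccn1 ranged from 5.94 to 6.58 and lay between these sets.

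**Figure D5:**
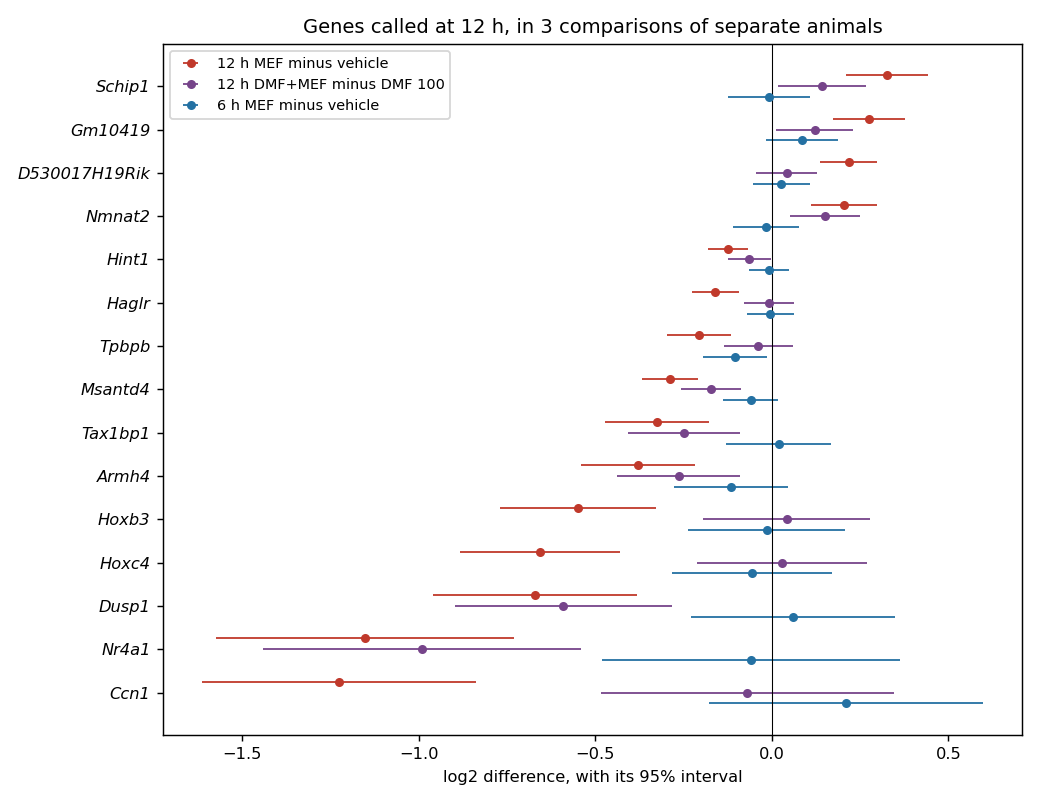
Log2 difference (x axis, with 95% intervals as horizontal lines) of the 15 genes called at 12 h (y axis) for MEF against vehicle at 12 h, DMF + MEF against DMF at 12 h and MEF against vehicle at 6 h, 3 comparisons that share no animals. Nr4a1 and Dusp1 lie below 0 in both comparisons at 12 h and near 0 at 6 h; outside the first, Hoxc4 and Hoxb3 lie near 0 and Ccn1 is at -0.07 and 0.21.

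At 6 h, 21 genes were called for MEF against vehicle (0.123%), 7 higher (0.0409%) and 14 lower (0.0819%), and 1121 (6.56%) had an unadjusted p below 0.05, 512 higher (2.99%) and 609 lower (3.56%). None of the 15 genes of 12 h was called, 10 had the same direction and 1 of these, Tpbpb, an unadjusted p below 0.05. The immediate early gene Egr2 fell by 1.16 ± 0.24 at 6 h (adjusted p = 0.0171), while Nr4a1 (-0.06 ± 0.21), Dusp1 (0.06 ± 0.14) and Ccn1 (0.21 ± 0.19) had small values. Eif4a1, a helicase of translation initiation, rose by 0.22 ± 0.03 (adjusted p = 4.8e-05), Fam81a by 0.48 ± 0.08 (0.000999) and the matrix gene Edil3 by 0.35 ± 0.08 (0.0427). Wdr5, a subunit of histone methyltransferase complexes, fell by 0.22 ± 0.04 (0.00709) and the helicase gene Ddx51 by 0.27 ± 0.06 (0.0427). Atf3, a stress response gene close to the floor, differed by -0.07 ± 0.02 (0.0477). Here too the MEF animals came in runs: Nr4a1 lay between 5.54 and 6.38 in animals 75 to 78 and between 6.85 and 7.46 in animals 79 to 82, and Fos between 8.27 and 9.10 and between 9.84 and 10.07. With runs of 4 as a random block 1 gene was called at 6 h (0.00585%), and 0 when these groups alone were fitted (983 with an unadjusted p below 0.05). Without MEF animals 76, 79, 80 or 81 the count was 12, 13, 8 and 8.

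The difference between the effects at 12 h and at 6 h was called for 2 genes (0.0117%), and 983 (5.75%) had an unadjusted p below 0.05. Ccn1 was lower by 1.44 ± 0.28 relative to its 6 h effect (-1.44, adjusted p = 0.0267), and Wdr5 higher by 0.30 ± 0.06 (0.0329). For Nr4a1 the difference between times was -1.09 ± 0.30 (adjusted p = 0.34) and for Dusp1 -0.73 ± 0.20 (0.34), so neither was shown to differ between the times. No gene was called with runs of 4 as a random block or after a further quantile normalization, where 396 and 1054 genes had an unadjusted p below 0.05 by limma. The count was 0 without 12 h vehicle animals 1, 3 or 4, 6 h MEF animals 79, 80 or 81 or 6 h vehicle animals 52 or 53. It was 1 without 12 h MEF animals 27, 30 or 32, 12 h vehicle animal 8, 6 h MEF animals 77 or 78 or 6 h vehicle animal 58.

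DMF was given at other doses, and its groups share the vehicle animals with the MEF group, so their values stand side by side and are not compared. The DMF groups reach to place 12, whereas MEF and vehicle hold places 1 to 8, and these values are not adjusted for place. Against vehicle, Ccn1 was at -0.81 with DMF at 100 mg/kg, at -1.30 with 179.2 mg/kg and at -0.88 with DMF+MEF, beside -1.22 with MEF. Msantd4 was at -0.15, -0.26 and -0.32 beside -0.29, Dusp1 at -0.24, -0.94 and -0.83 beside -0.67, and Nr4a1 at -0.09, -0.90 and -1.08 beside -1.15. Nqo1 was at 0.43, 0.77 and 0.63 beside 0.19. Counts of calls against vehicle were 4 (0.0234%), 224 (1.31%) and 248 (1.45%) beside 15.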

How the data were processed

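RNA of brain was hybridised to Affymetrix arrays, each taken as a separate animal. The authors deposited log2 expression values in one matrix, 45141 probe sets by 550 arrays; the submitters' processing notes name RMA, GCRMA, R 2.11.1 and limma 3.4.5, with no role or order. The deposited log2 values of the 6 h and 12 h brain arrays have separate floors (2.13 and 2.18). At 12 h 13.6% of gene values lie at the floor, so differences of genes there can be understated. Values tied above the floor, such as Haglr at 2.48 in most MEF animals, are not in this share. Tied values also narrow the pooled spread, so adjusted p-values of dim genes can be too small. Hoxc4 had a limma adjusted p of 0.00088 in the main fit and 0.41 with the MEF and vehicle groups alone. The part of ties in this was not tested. The 464 columns of other organs were not used here. Of the probe sets, 28898 had 1 gene, 551 several and 15588 none in the platform annotation, which can be old; 104 were controls. Each of 17097 genes was represented by 1 probe set, the one with the highest mean over the brain arrays, and 9917 genes had no other. The number of arrays limits the precision.

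With limma 3.58.1 (R 4.3.3, the data.table package, version 1.17.8; tables and figures in Python 3.11.15 with pandas 2.3.3, numpy 2.4.6 and matplotlib 3.10.9), 1 mean per group was fitted to all 86 brain arrays of 11 groups, with a shared variance per gene, and p-values were adjusted by Benjamini-Hochberg over all genes. The difference between times compares log2 differences within tables normalized apart. Named genes were the called genes above the median level in each direction, predicted genes left out, filled to 12 by the smallest p, the called members of 42 gene lists (590 of 673 genes measured), up to 3 called genes in each direction of the other comparisons, and 15 fixed genes. The alternatives tried were the place of the animal number (a line, a curve, a block, or places 1 to 4 and 5 to 8), quantile normalization, dim genes left out, trend and robust variances, the mean of all probe sets, smaller sets of arrays and each animal left out; the block of runs of 4, the arrays left out for region genes and the naive comparison were added after the data had been seen. The comparison, the lists and the tests were chosen with earlier results of these data known. The fit was tested on simulated data with independent errors. These held no runs of animal numbers, no single arrays with region genes and no floor, so the simulation does not bear on calls that depend on them.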

Additional observations from a re-analysis of the deposited data

Results flagged for a closer look

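In groups of 8, an animal was singled out when its gap to the nearest other animal took more of the group's range than Dixon's 95% critical value of 0.526. This held in 16 of 132 such tests. Chance gives about 1 in 20 for normal values without ties, so that share is no measure where values tie. For Hoxc4 and Haglr every other MEF animal shared 1 value, and any animal off it would be flagged. Among named genes, MEF animal 26 was low in Zmynd8 (8.82, against a median of 9.20 in the others) and Ankrd29 (6.997 against 7.43), and high in Hcar2 (2.44 against 2.33). MEF animal 25 was high in Hoxb3 (2.93 against 2.45), Hoxc4 (2.21 against 2.18) and Osgin1 (3.19 against 2.96), and MEF animal 28 was low in Haglr (2.40 against 2.48). Vehicle animal 1 was high in Osgin1 (3.37 against 2.98), and vehicle animal 2 in Akr1b8 (2.55 against 2.38) and Hcar2 (2.66 against 2.33), genes close to the floor.

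Among marker lists, given as the mean log2 level over the measured members, MEF animal 30 had pituitary genes at 7.29 against a median of 3.52 and vehicle animal 3 at 4.03 against 3.58. Cerebellar genes were at 8.52 in vehicle animal 1 against 6.46, and at 6.48 in MEF animal 26 against 6.29. MEF animal 29 had olfactory bulb genes at 5.96 against 4.50 and blood cell genes at 4.47 against 3.79.

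The effect of MEF differed between 12 h and 6 h, by a test of that difference in limma, for Ccn1 (-1.44, adjusted p = 0.0267) and Wdr5 (0.30, adjusted p = 0.0329).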

How the results depend on the processing

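The 15 genes called for MEF against vehicle at 12 h became 40 with place as a line, 77 with place as a line and a square, and 48 after quantile normalization. The count was 7 with dim genes left out (8548 genes tested), 3 with these groups alone, 6 with the 12 h arrays alone and 2 with place as a block. It was 32 and 30 in places 1 to 4 and 5 to 8, and 5 with runs of 4 as a random block. It was 7 without the arrays with Gh above 6, and 31 without the 8 arrays left out for Gh, Slc6a5 or olfactory bulb genes. It ranged from 9 to 75 with 1 animal left out. Trend and robust variances gave 15 and the mean of all probe sets 16. The 6 genes called for DMF+MEF against DMF became 24 and 26 with place as a line and with a square, and 0 with the mean of all probe sets, with these groups alone, with the 12 h arrays alone and with runs of 4 (1348, 512, 1061 and 639 with an unadjusted p below 0.05 by limma), and ranged from 0 to 24 with 1 animal left out. The 21 genes called at 6 h became 8 with dim genes left out, 13 with the 6 h arrays alone, 1 with runs of 4 and 0 with these groups alone (983 with an unadjusted p below 0.05), and ranged from 8 to 23. The 2 genes called for the difference between times became 5 with place as a line and a square and 0 after quantile normalization, with dim genes left out, with these groups alone and with runs of 4 (1054, 577, 1006 and 396 with an unadjusted p below 0.05), and ranged from 0 to 3. No named gene changed sign while called. The cause of these shifts was not tested. No paired analysis was possible because the groups compared share no animal numbers in the labels. Animals matched by place alone, which the labels do not give as a pairing, are the block of 8 places above, with 2 calls and 0 of them among the 15.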

Other observations

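Some region lists lay on one side of 0 for MEF against vehicle at 12 h without a called member. All 11 measured striatal markers lay below 0 (median -0.13), as did 13 of 16 hypothalamic markers (median -0.23) and 13 of 15 meningeal and fibroblast markers (median -0.14). Of 11 GABAergic neuron markers 9 lay below 0 (median -0.15, 3 with an unadjusted p below 0.05, against 10.3% of all genes), and of 13 choroid plexus markers 9 lay above 0 (median 0.19). In DMF+MEF against DMF, in other animals, the striatal median was -0.24 and the choroid plexus median -0.20. There the hypothalamic median was 0.06, with 11 of 16 markers above 0. The meningeal and fibroblast median was -0.03 and the GABAergic median -0.02.

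Arc was at -0.85 for MEF against vehicle and at -1.22 ± 0.31 for DMF+MEF against DMF (limma adjusted p = 0.116), and 11 of 24 immediate early genes had an unadjusted p below 0.05 in the latter, all lower, with none called; over all genes 4.12% were lower with such a p.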
